A study of Drosophila melanogaster with 10 samples.

Results

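The glutathione S-transferase (GST) genes of the adult midgut of Drosophila melanogaster were examined as a family. Members were all genes of the table whose symbol is Gst, a class letter (D, E, O, S, T or Z) and a number, which gave 35 of the 14310 genes: 11 of class D (delta), 14 of class E (epsilon), 3 of class O (omega), 1 of class S (sigma), 4 of class T (theta) and 2 of class Z (zeta). No measured value entered the choice. The table holds 10 RNA-seq libraries, each made from the RNA of 20 midguts of adult males on a yeast-only diet at 25 °C, dissected 7 days after eclosion. In 5 libraries, labelled dHNF4 RNAi, the males were w/Y with a single copy each of the driver mex-GAL4 (mex-GAL4/+) and of the transgene (UAS-dHNF4 RNAi NIG9310-R2/+), so that the transgene is driven in enterocytes, the absorptive cells. The 5 control libraries came from w1118/Y; ; UAS-dHNF4 RNAi NIG9310-R2/+ males, which carry the same transgene without a driver. The driver is therefore present in one group alone, and its own effect and that of the knockdown cannot be told apart. The comparison asks how midgut expression differs when a construct against Hnf4, which encodes a nuclear receptor that controls metabolic genes, is expressed in enterocytes.

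Glutathione S-transferases are cytosolic enzymes that join the tripeptide glutathione to reactive, fat-soluble compounds and so prepare them for export from the cell. They act on plant toxins, insecticides and products of lipid peroxidation, and the gut is one of the main sites of this detoxification in insects. Delta and epsilon are the classes that expanded in insects, mostly as runs of neighbouring gene copies. Omega, sigma, theta and zeta have counterparts in vertebrates. Zeta enzymes act in tyrosine breakdown, and GstE14, known as noppera-bo, is needed for ecdysteroid synthesis in the ring gland.

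Values are TPM, the length-corrected share of a gene in the transcripts of its library, so that levels of different genes can be compared and sequencing depth is unknown. The libraries' TPM totals ran between 975327 and 982443. Hnf4 itself, the targeted gene, measured 42.1, 46.1, 47.4, 44.7 and 48.0 TPM in dHNF4 RNAi replicates 1 to 5, against 36.5, 45.8, 41.8, 36.3 and 33.5 TPM in control replicates 1 to 5. The groups overlapped in TPM, with a log2 fold change of 0.24 (limma adjusted p = 0.0199, called higher). After the second scaling described here the groups did not overlap, and Hnf4 was called lower, at -0.35 (limma adjusted p = 0.000815). The sign of the Hnf4 difference thus turned with the scaling. The groups are therefore named by their labels throughout, as the libraries labelled dHNF4 RNAi, or RNAi libraries, and the control libraries. Fold changes are those of RNAi over control libraries on the log2(TPM + 1) scale, tested with limma over the 8784 genes that averaged 1 TPM or more, with Benjamini-Hochberg adjustment, and a gene is called when its adjusted p is below 0.05. The median over all of these genes was 0.55 on this scale. A second scaling, median of ratios, divides each library by its median ratio to a common reference, which brought the median of all genes to 0.01. Both are given for each gene, since a share of a library can rise without more transcript. The labels name the replicates biological but do not say whether they came from separate cultures, so p-values measure the spread between these libraries.

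GST genes went both ways in the RNAi libraries, and 8 of the 13 that fell were epsilon genes. Of the 35 members, 32 passed the filter on low values. Among these, 12 were higher, 13 were lower and 7 were not called. All genes tested were called higher in 66.9% and lower in 16.3% of cases (83.2% in all), so the members' 37.5% higher was below and their 40.6% lower above the background. After median-of-ratios scaling 8 members were higher and 17 lower, or 25.0% and 53.1%, beside 35.6% and 35.8% of all genes (71.4% in all). The median log2 fold change of the tested members was 0.07 in TPM and -0.45 after that scaling. Decreases of at least 2-fold in TPM were seen in 7 members (21.9%, against 4.74% of all genes tested) and increases of at least 2-fold in 5 (15.6%, against 16.7%). After median-of-ratios scaling these were 11 members (34.4%, against 11.6%) and 3 members (9.38%, against 4.06%). The groups did not overlap in 22 of the 32 tested members, 68.8% beside 72.0% of all genes, and in 21 after that scaling, 65.6% beside 58.0%. In 21 members the call had the same direction under both scalings, 8 of them higher and 13 lower. Only GstT2 was called in opposite directions.

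Markers of several cell types moved between the groups as well, and their part in the GST results was not tested. The counts stand beside 66.9% higher and 16.3% lower of all genes tested in TPM, and 35.6% and 35.8% after median-of-ratios scaling. All 7 progenitor markers (stem cells and enteroblasts) were higher under both scalings, with a summed level of 164 to 176 TPM in RNAi libraries and 28.8 to 54.8 TPM in control libraries. Of 7 enterocyte markers, 2 rose and 3 fell in TPM, 2 rose and 5 fell after median-of-ratios scaling, and the sums were 35723 to 44407 and 52638 to 60328 TPM. The 2 that rose were nub (1.20 in TPM and 0.61 after scaling) and mex1 (0.87 and 0.27). Most of the enterocyte sum was alphaTry, Amy-p and Mal-A1, with means of 23580, 8595 and 6888 TPM in RNAi and 24231, 18269 and 14481 TPM in control libraries. Of 6 fat body markers, 3 were testable and all of these fell under both scalings, with sums of 130 to 163 TPM in RNAi libraries and 233 to 361 TPM in control libraries. Most of the fat body sum was the gene takeout, at 124 to 158 TPM in RNAi and 216 to 343 TPM in control libraries. Among 8 enteroendocrine markers 4 rose and 2 fell in TPM (sums of 336 to 384 and 310 to 386 TPM), and after median-of-ratios scaling 0 rose and 5 fell. Of 8 visceral muscle markers 3 fell, and 8 after that scaling (1418 to 1704 and 1547 to 1806 TPM). Of 7 tubule markers 5 were testable and 1 fell, or 2 after that scaling (82.3 to 149 and 107 to 160 TPM), and the 5 haemocyte markers were all below the filter (0.438 to 0.946 and 1.17 to 3.20 TPM). The sums were over TPM as deposited, and the library totals of enterocyte markers show the labelled tissue. In these bulk libraries, fewer cells of a type and less RNA per cell cannot be told apart.

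The makeup of the GST pool differed between the groups whatever the scaling, because the share a class takes of the summed GST level does not depend on how a library is scaled. Class D held 45.8% ± 1.75 of the summed GST TPM in RNAi libraries and 23.7% ± 1.65 in control libraries (SD, n = 5 each). Class E held 26.2% ± 0.544 in RNAi libraries and 50.2% ± 1.32 in control libraries. The 2 classes thus changed places as the larger part of the pool, and neither share overlapped between the groups. Class O held 13.1% ± 1.02 in RNAi and 5.20% ± 0.131 in control libraries, class T 12.5% ± 0.994 and 18.0% ± 1.22, and class S 2.17% ± 0.311 and 2.85% ± 0.193. The ratio of summed class E to summed class D was 0.529 to 0.594 in RNAi libraries and 1.87 to 2.42 in control libraries. No p is given for these sums, since they are totals over chosen members.

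**Figure D1:**
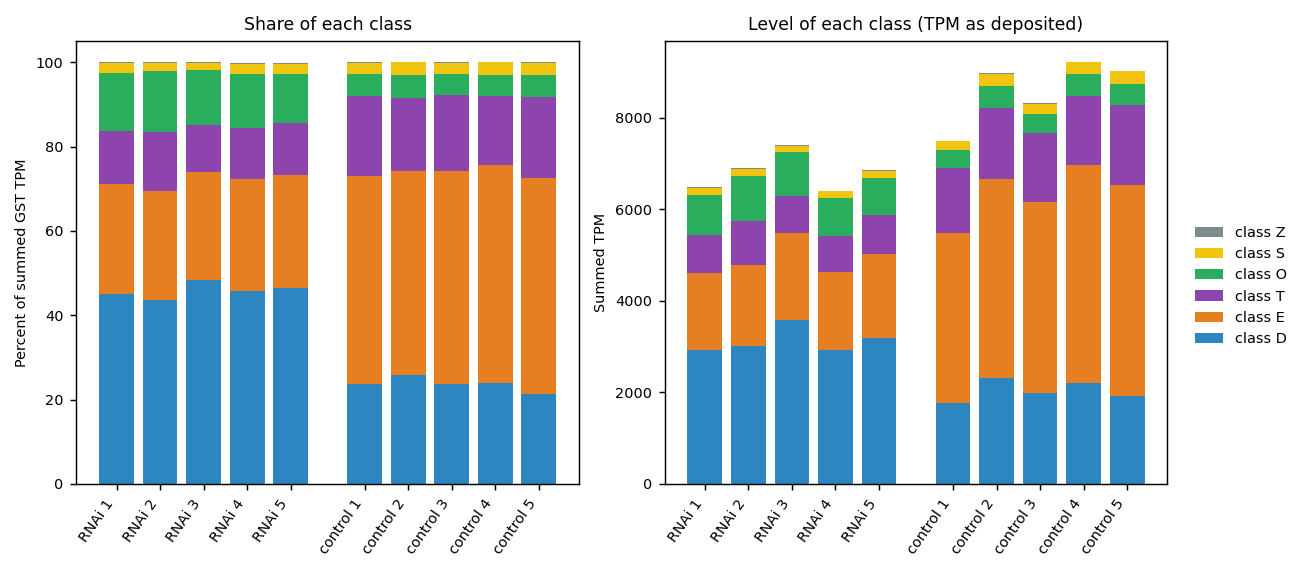
Share of each GST class in the summed GST TPM (left, percent) and summed TPM of each class (right) in each library, dHNF4 RNAi libraries at the left of each panel. Class D is the largest part in every RNAi library and class E in every control library, and the summed bars at the right are lower in the RNAi group.

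The family as a whole took a smaller part of the transcripts in RNAi libraries. The summed TPM of all 35 members was 6815 ± 396 in RNAi libraries and 8613 ± 709 in control libraries, with no overlap (6411 to 7409 against 7501 to 9228). This was 0.697% ± 0.0408 of the TPM of a library in the RNAi group and 0.881% ± 0.0717 in the control group. After median-of-ratios scaling the sums were 5532 ± 306 and 10599 ± 743. The sum of class D was 3127 ± 275 TPM in RNAi and 2039 ± 223 TPM in control libraries, but after that scaling the groups overlapped, at 2538 ± 210 and 2502 ± 125. The sum of class E was 1782 ± 90.3 TPM in RNAi libraries against 4325 ± 412 in control libraries, and 1447 ± 76.8 against 5327 ± 505 after scaling.

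**Figure D2:**
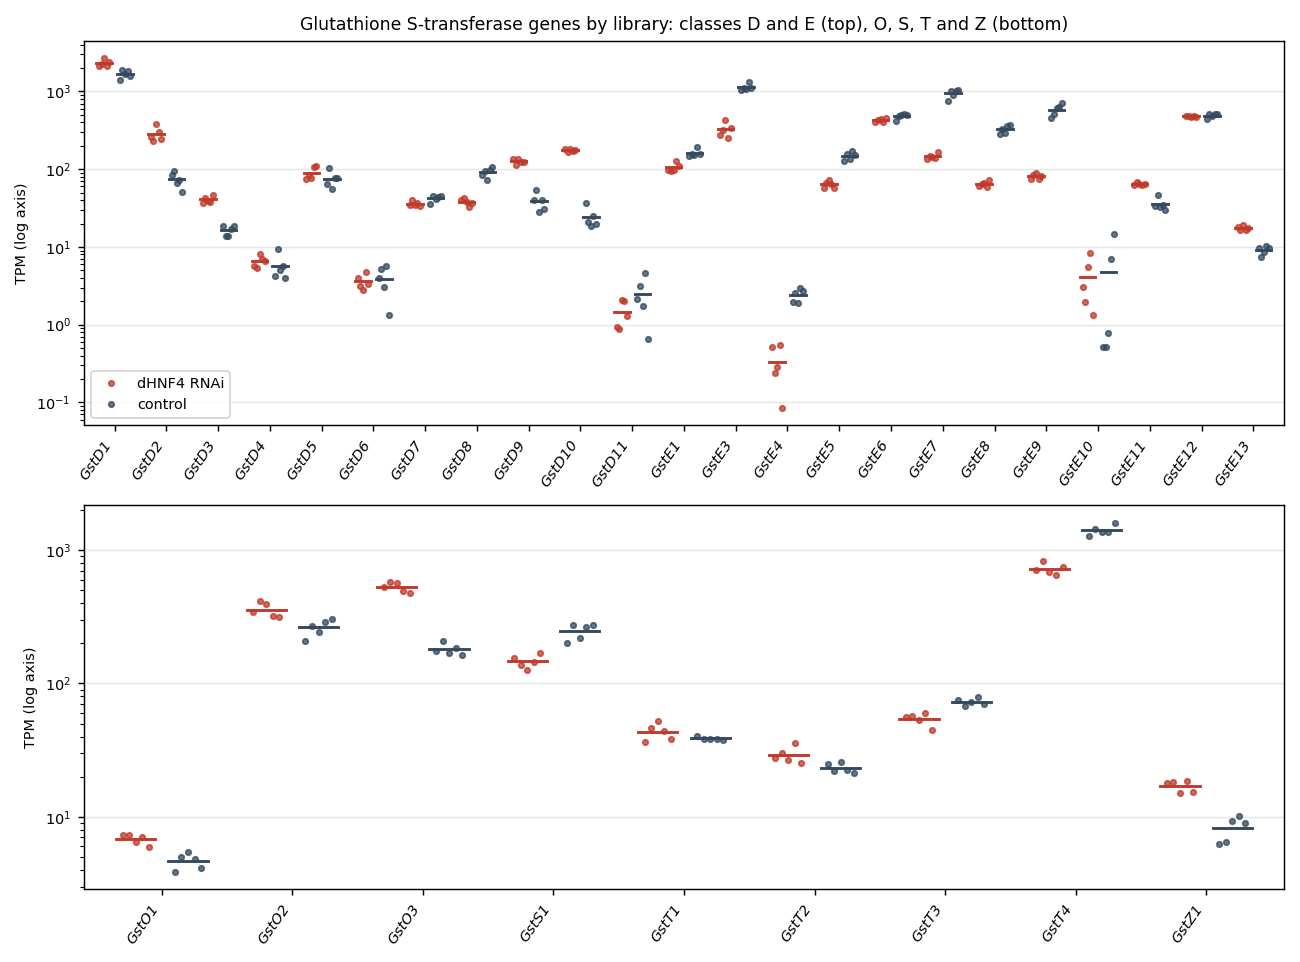
TPM (log axis) of the 32 tested GST genes in each library, red for dHNF4 RNAi and dark blue for control, with a bar at the mean of each group. GstE3, GstE7, GstE8 and GstE9 lie several-fold lower and GstD2, GstD9 and GstD10 several-fold higher in the RNAi group, and GstE12 lies at the same level in TPM in both groups.

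Class E held the steepest decreases of the family. Of its 14 members 12 were tested, of which 8 were lower and 2 higher in TPM, and 9 lower and 2 higher after median-of-ratios scaling. Of all genes tested, 16.3% were lower and 66.9% higher in TPM, and 35.8% and 35.6% after that scaling. The 8 that fell in TPM fell under both scalings and are all genes of a single tandem run on chromosome arm 2R (18396638 to 18409835, BDGP6.54), 13.2 kb that hold GstE10 and GstE1 to GstE9. GstE9 (FBgn0063491) measured 75.9, 84.8, 88.3, 74.0 and 80.6 TPM in RNAi replicates 1 to 5, against 458, 512, 609, 635 and 710 TPM in control replicates 1 to 5. Every RNAi library lay far below every control library, with a log2 fold change of -2.83 (SE 0.11, limma adjusted p = 5.04e-09) and of -3.42 after median-of-ratios scaling. GstE7 (FBgn0063493) measured 136, 150, 142, 138 and 168 TPM in RNAi libraries and 748, 1018, 898, 1008 and 1058 TPM in control libraries. Its log2 fold change was -2.67 (SE 0.099, limma adjusted p = 3.65e-09), the smallest adjusted p of the family. GstE8 (FBgn0063492), the gene between them, had 60.3, 65.5, 66.6, 59.4 and 73.2 TPM in RNAi libraries and 288, 325, 296, 356 and 376 TPM in control libraries. It fell by 2.31 on the log2 scale (SE 0.088, limma adjusted p = 4.29e-09), so the 3 neighbouring genes at the right end of the run fell to between 13.8% and 19.8% of the control mean.

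GstE3 (FBgn0063497), the most abundant epsilon gene of the control midgut, measured 278, 322, 425, 255 and 342 TPM in RNAi libraries, against 1040, 1120, 1071, 1316 and 1113 TPM in control libraries. The log2 fold change was -1.82 (SE 0.13, limma adjusted p = 1.69e-07). GstE5 (FBgn0063495) had 57.8, 67.3, 72.2, 64.4 and 57.2 TPM in RNAi libraries and 127, 156, 137, 171 and 153 TPM in control libraries, a log2 fold change of -1.21 with groups that did not overlap. GstE4 (FBgn0063496) was a low gene, at 0.0856 to 0.541 TPM in RNAi libraries and 1.90 to 2.95 TPM in control libraries. Its fold change of -1.36 on the log2(TPM + 1) scale understates a mean that was 13.8% of that in the control group. Together GstE3, GstE7, GstE8 and GstE9 summed to 617 ± 80.6 TPM in RNAi libraries and 2991 ± 316 TPM in control libraries, or 9.02% ± 0.691 and 34.7% ± 1.29 of the GST pool. These genes were put together after their falls were seen, so the lower sum and share follow from that choice.

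Not every gene of the run fell as far, and the genes named in the next sentences lie outside the rule for named genes and were added after their values were seen. GstE1 was at 106 ± 13.4 TPM in RNAi and 162 ± 17.2 TPM in control libraries (-0.61, limma adjusted p = 8.97e-05). GstE6, which sits between GstE5 and GstE7, was at 429 ± 20.6 TPM in RNAi and 481 ± 38.9 TPM in control libraries. Its log2 fold change was -0.16 (limma adjusted p = 0.0412), a call lost in 7 of the 10 fits that left out a library (RNAi replicate 1, 2 or 4, or control replicate 2, 3, 4 or 5, limma adjusted p = 0.0612 to 0.102), while after median-of-ratios scaling it was -0.76 with adjusted p = 2.02e-06. GstE6 and GstE7 are next to each other on the same strand, and their ratio was 2.67 to 3.16 in RNAi libraries and 0.466 to 0.554 in control libraries. GstE2 was below the filter, at 1.03 ± 0.283 TPM in RNAi and 0.771 ± 0.219 TPM in control libraries.

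Epsilon genes outside the run did not fall in TPM. GstE11 (FBgn0034354), 93.8 kb beyond GstE9 on the same arm, measured 62.4, 67.6, 65.0, 63.5 and 65.3 TPM in RNAi libraries and 33.4, 46.3, 32.4, 34.4 and 30.2 TPM in control libraries. It rose by 0.87 on the log2 scale (limma adjusted p = 6.39e-06), and by 0.28 after median-of-ratios scaling (adjusted p = 0.00371), where the groups overlapped. GstE13 (FBgn0033381), elsewhere on 2R, had 17.9, 16.7, 19.4, 16.3 and 17.7 TPM in RNAi libraries and 9.83, 7.53, 8.51, 10.2 and 9.83 TPM in control libraries, with changes of 0.87 and 0.32. Both therefore rose under both scalings. GstE12, added after its values were seen, was at 478 ± 9.28 TPM in RNAi and 490 ± 29.1 TPM in control libraries (-0.03, limma adjusted p = 0.581), and was lower after median-of-ratios scaling (-0.63). The ecdysteroid gene GstE14 was listed at 0 in 4 RNAi and 3 control libraries, and at 0.136 TPM, 0.181 TPM and 0.0404 TPM in the others.

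GstE10, which lies at the left end of the run on the opposite strand and overlaps GstE1 by 127 bp, varied more within the groups than between them. It measured 3.03, 1.94, 5.50, 8.46 and 1.35 TPM in RNAi replicates 1 to 5 and 0.520, 0.512, 0.776, 7.05 and 14.8 TPM in control replicates 1 to 5 (log2 fold change 0.34, limma adjusted p = 0.648). Markers of the Malpighian tubule, the renal organ that joins the gut at the end of the midgut, were in part high in the same libraries. The urate oxidase gene Uro measured 17.0, 3.62, 2.90, 26.6 and 0 TPM in RNAi replicates 1 to 5 and 0, 0, 0.0463, 10.4 and 34.6 TPM in control replicates 1 to 5. NaPi-T, a phosphate transporter, measured 11.6, 6.37, 8.09, 24.0 and 0.937 TPM in RNAi libraries and 1.14, 1.98, 1.70, 13.3 and 22.2 TPM in control libraries. Control replicates 4 and 5 and RNAi replicate 4 were the 3 highest libraries for GstE10, and 3 of the 4 highest for Uro. Of the 7 tubule markers, 5 (Uro, NaPi-T, ZnT35C, CapaR and Lkr) were highest in RNAi replicate 4 among RNAi libraries and in control replicate 5, then 4, among control libraries. Drip and Irk1, the most abundant of the list, did not follow this order. Irk1 was lowest in RNAi replicate 4 (27.7 TPM) and control replicate 5 (38.3 TPM) of their groups, and Drip was lowest among controls in control replicate 4 (50.4 TPM). A cut at 10 TPM of Uro, chosen after the values were seen, kept 3 RNAi and 3 control libraries. It left out control replicates 4 and 5, the 2 controls highest in GstE10. The call of GstE10 as higher there, at 1.15, follows from that choice of libraries and is not a test of GstE10. Over the libraries kept, 12 GST genes were higher and 11 lower. In that smaller set GstD7 (-0.18, limma adjusted p = 0.208), GstE6 (-0.06, 0.566) and GstT2 (0.17, 0.174) lost their calls. The part of tubule RNA in GstE10 was not tested.

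**Figure D3:**
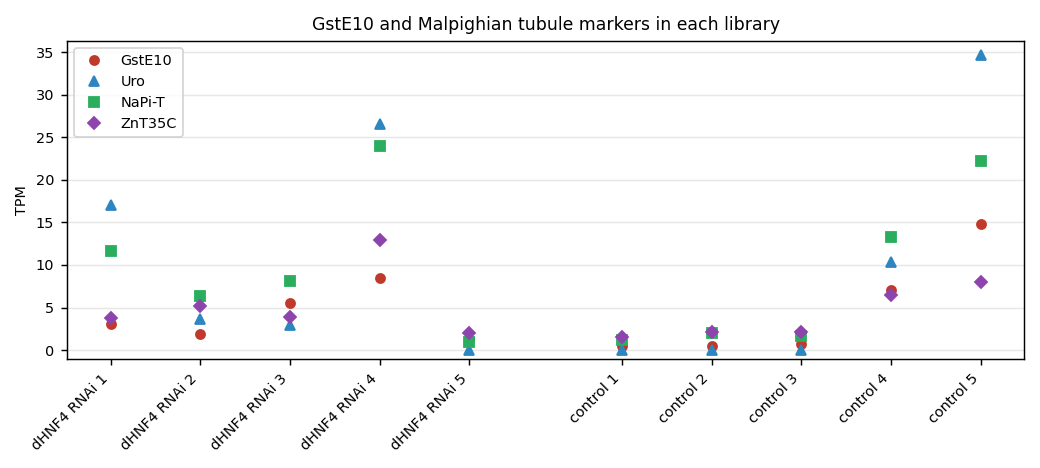
TPM of GstE10 and of 3 Malpighian tubule markers (Uro, NaPi-T and ZnT35C) in each library, dHNF4 RNAi libraries at the left. GstE10 is highest in control replicates 4 and 5 and RNAi replicate 4, where these 3 markers are also high. Drip and Irk1 of the same list, not plotted, do not follow.

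Class D genes rose at one end of their own tandem run and fell toward the other. The 11 genes lie within 20.8 kb of chromosome arm 3R (12364776 to 12385624, BDGP6.54), with GstD10, GstD9 and GstD1 on the minus strand and GstD2 to GstD8 and GstD11 on the plus strand. In TPM, 5 of the 11 were higher, 2 lower and 4 not called, and after median-of-ratios scaling 4 were higher and 3 lower. Of all genes tested, 66.9% were higher and 16.3% lower in TPM, and 35.6% and 35.8% after that scaling. The higher calls of the class were thus below that share in TPM and near it after scaling. GstD10 (FBgn0042206) measured 182, 166, 182, 172 and 179 TPM in RNAi libraries, against 36.4, 21.0, 18.5, 24.9 and 19.7 TPM in control libraries. This was the largest increase of the family, 7.31-fold between the means, with a log2 fold change of 2.86 (SE 0.15, limma adjusted p = 3.21e-08) and of 2.27 after median-of-ratios scaling. GstD9 (FBgn0038020), its neighbour, had 135, 115, 134, 124 and 124 TPM in RNAi libraries and 40.7, 53.7, 28.4, 40.1 and 31.1 TPM in control libraries, a rise of 1.71 on the log2 scale with no overlap. GstD2 (FBgn0010038) measured 256, 231, 385, 301 and 247 TPM in RNAi and 85.0, 93.5, 67.0, 73.1 and 50.7 TPM in control libraries, and its log2 fold change was 1.93 (SE 0.17, limma adjusted p = 1.05e-06). The rise of GstD3 (FBgn0010039) was smaller, at 37.0, 42.5, 39.2, 38.3 and 46.9 TPM in RNAi and 18.4, 13.7, 14.0, 17.1 and 18.7 TPM in control libraries (1.27). These 4 genes rose under both scalings.

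GstD1 (FBgn0001149), the enzyme that detoxifies DDT in the fly, was the most abundant GST of both groups. It measured 2159, 2274, 2680, 2108 and 2400 TPM in RNAi libraries and 1396, 1871, 1671, 1825 and 1559 TPM in control libraries. The groups did not overlap in TPM (log2 fold change 0.48, limma adjusted p = 0.000489), but the sign turned after median-of-ratios scaling, to -0.12 with no call (adjusted p = 0.196). Its share of the GST pool was 34.0% ± 1.45 in RNAi libraries and 19.3% ± 1.40 in control libraries. GstD1 made up 14.7 of the 22.2 percentage points by which the class D share was higher in RNAi libraries.

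At the right of the run the direction was opposite. GstD8 (FBgn0010044) measured 40.3, 42.5, 37.4, 32.7 and 36.3 TPM in RNAi libraries and 84.9, 96.0, 73.5, 97.6 and 106 TPM in control libraries. Every RNAi library lay below every control library, with a log2 fold change of -1.25 (SE 0.10, limma adjusted p = 5.19e-07) and of -1.84 after median-of-ratios scaling. GstD7 (FBgn0010043) had 34.7, 40.4, 34.5, 36.5 and 33.2 TPM in RNAi and 35.7, 45.6, 42.0, 43.8 and 45.5 TPM in control libraries, groups that overlapped (-0.24, limma adjusted p = 0.0151). After median-of-ratios scaling GstD7 no longer overlapped, at -0.82. GstD5 (FBgn0010041), in the middle of the run, was at 90.5 ± 16.4 TPM in RNAi and 75.4 ± 18.0 TPM in control libraries and was not called under either scaling (0.27 and -0.32). Without control replicate 2 it was called higher in TPM, at 0.39 (limma adjusted p = 0.0235). The remaining 3, GstD4, GstD6 and GstD11, averaged 1.44 to 6.51 TPM in RNAi and 2.45 to 5.66 TPM in control libraries and were not called in TPM, and GstD11 was called lower after median-of-ratios scaling (-0.78, limma adjusted p = 0.0318). GstD4 was called higher without control replicate 2 (0.39, limma adjusted p = 0.0134) and GstD11 lower without control replicate 5 (-0.65, adjusted p = 0.0213).

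**Figure D4:**
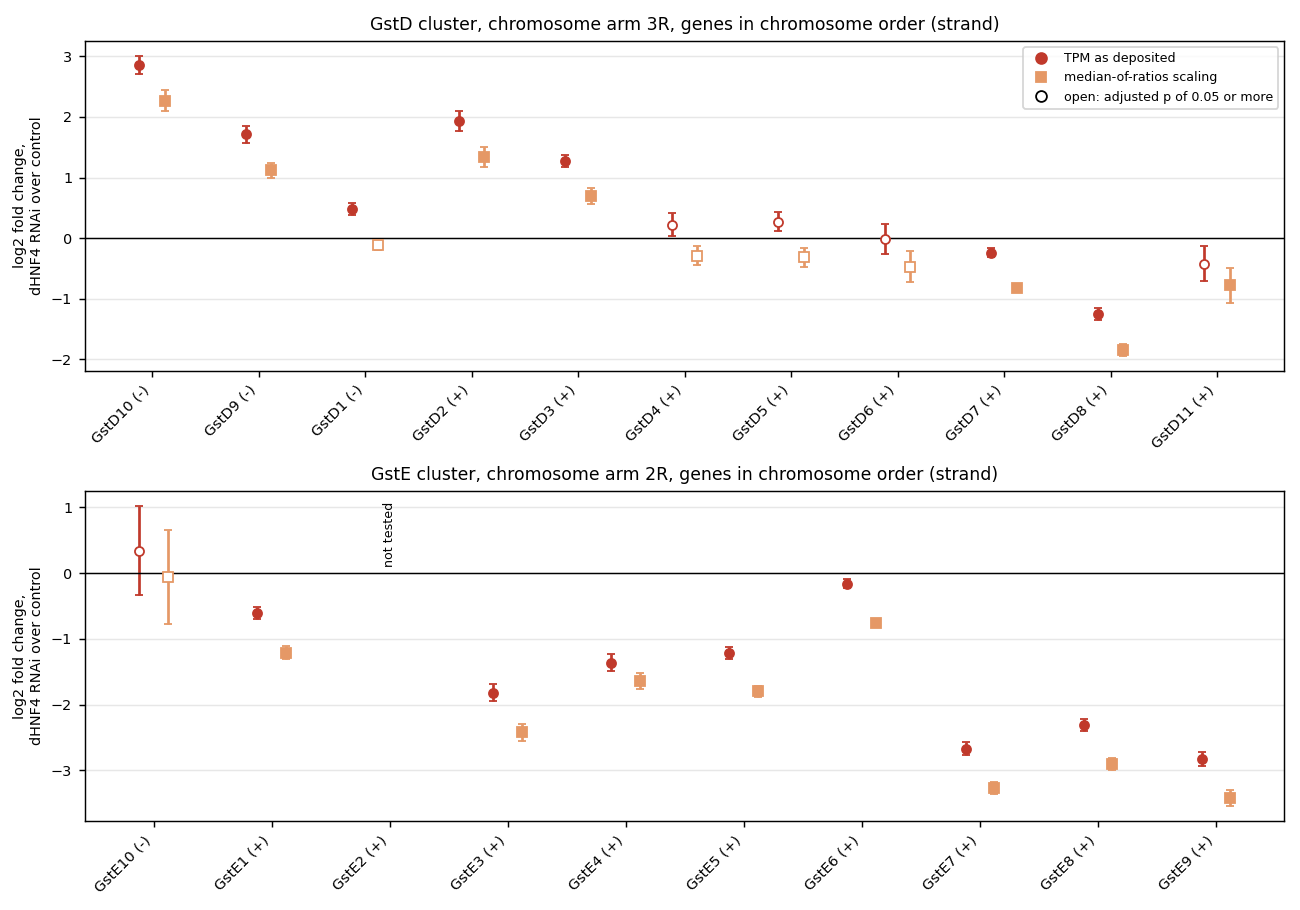
Log2 fold change (dHNF4 RNAi over control, bars for the standard error) of each gene of the GstD and GstE runs in chromosome order, circles for TPM as deposited and squares after median-of-ratios scaling, open where the adjusted p was 0.05 or more. In the GstD run the TPM values lie between 2.86 at GstD10 and -1.25 at GstD8, and in the GstE run GstE10 is the only tested gene that is not called lower.

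The omega genes, whose enzymes act as reductases and thiol transferases, lie together on chromosome arm 3L. GstO3 (FBgn0035904; 8518885 to 8520295, BDGP6.54) measured 532, 572, 565, 494 and 477 TPM in RNAi libraries and 176, 209, 168, 185 and 164 TPM in control libraries. All RNAi libraries were above all control libraries, with a log2 fold change of 1.55 (SE 0.080, limma adjusted p = 2.80e-08) and of 0.95 after median-of-ratios scaling. GstO2 (FBgn0035906) had 341, 415, 396, 321 and 316 TPM in RNAi and 208, 270, 245, 288 and 303 TPM in control libraries, and GstO1 (FBgn0035907) 7.30, 7.31, 6.49, 7.02 and 5.90 TPM against 3.86, 5.03, 5.43, 4.82 and 4.11 TPM. Both were called higher in TPM, by 0.45 and 0.47, but turned to -0.15 and -0.04 with no call after median-of-ratios scaling. GstO3 was thus the omega gene whose call held under both. The ratio of GstO3 to GstO2 was 1.38 to 1.56 in RNAi libraries and 0.541 to 0.845 in control libraries.

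GstS1 (FBgn0010226), the sigma enzyme, which removes the lipid peroxidation product 4-hydroxynonenal, fell. It measured 156, 137, 127, 146 and 169 TPM in RNAi libraries and 202, 274, 218, 265 and 273 TPM in control libraries, with no overlap (log2 fold change -0.74, limma adjusted p = 4.70e-05, and -1.33 after median-of-ratios scaling). GstS1 is also abundant in muscle, and the part of muscle RNA in its fall was not tested. Of the 8 visceral muscle markers 3 fell and 5 were not called in TPM, with a median log2 fold change of -0.18. After that scaling all 8 fell, with a median of -0.77.

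In class T GstT4 and GstT3 fell, and the direction of GstT1 and GstT2 depended on the scaling. GstT4 (FBgn0030484), on the X chromosome and second of all GST genes by level in both groups, measured 709, 822, 690, 645 and 744 TPM in RNAi libraries and 1281, 1427, 1374, 1360 and 1609 TPM in control libraries. The fall to 51.2% of the control mean had a log2 fold change of -0.97 (SE 0.080, limma adjusted p = 5.35e-07), and of -1.57 after median-of-ratios scaling. GstT3 (FBgn0031117), also X-linked, had 55.8, 56.7, 52.8, 60.1 and 44.9 TPM in RNAi and 74.5, 67.8, 72.7, 79.6 and 70.2 TPM in control libraries (-0.43, limma adjusted p = 0.000337, and -1.02 after median-of-ratios scaling), again with no overlap. GstT1 (FBgn0050000) had 36.5, 46.6, 52.3, 44.1 and 38.0 TPM in RNAi and 40.3, 38.5, 38.4, 38.4 and 37.9 TPM in control libraries. Its neighbour GstT2 (FBgn0050005) had 27.7, 29.9, 26.7, 35.8 and 25.5 TPM in RNAi and 24.9, 22.2, 25.7, 22.5 and 21.2 TPM in control libraries. Both overlapped between groups in TPM, and their signs turned with the scaling. GstT1 was not called in TPM (0.15), except without RNAi replicate 1 (0.21, limma adjusted p = 0.0371), and was lower after median-of-ratios scaling (-0.43). GstT2 was higher in TPM (0.30, limma adjusted p = 0.00901) and lower after that scaling (-0.27, adjusted p = 0.0367).

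GstZ1 (FBgn0037696), of the class whose enzymes isomerise maleylacetoacetate, rose. It measured 18.0, 18.3, 15.2, 18.4 and 15.3 TPM in RNAi libraries and 6.28, 6.51, 9.28, 10.2 and 9.00 TPM in control libraries. The change was 0.98 on the log2 scale (SE 0.13, limma adjusted p = 1.99e-05) and 0.43 after median-of-ratios scaling (adjusted p = 0.0171), where the groups overlapped. The neighbouring GstZ2 was below the filter, at 0.678 ± 0.146 TPM in RNAi and 0.555 ± 0.159 TPM in control libraries.

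The single-exon members and those with introns differed in their counts of calls. In the reference annotation 16 members have a single exon in all their transcripts, GstD2 to GstD8 and GstE1 to GstE9, and coding lengths of all members run between 597 and 804 bp. Of the 15 single-exon members tested, 10 were lower and 2 higher, the same numbers under both scalings. Of the 17 tested members with introns, 10 were higher and 3 lower in TPM, and 6 and 7 after median-of-ratios scaling. Of all genes tested, 66.9% were higher and 16.3% lower in TPM, and 35.6% and 35.8% after that scaling. The members with introns were near these shares, and the single-exon members were more often lower. Most single-exon members belong to the GstE run, so exon number and position cannot be told apart. Of the 10 nearest tested protein-coding genes around the GstE run, 5 on each side, 1 was called lower and 2 higher in TPM. The 5 on the left had log2 fold changes of -0.90 to -0.15, none of them called. Those of the 5 on the right were -0.42 to 0.82. After median-of-ratios scaling 7 of the 10 were lower and 1 higher (-1.23 to 0.30). Around the GstD run 6 of 10 neighbours were lower and 2 higher (-1.24 to 1.06), among them the cytochrome P450 gene Cyp9f3 at -1.24. After median-of-ratios scaling 7 were lower and 2 higher (-1.82 to 0.5). Around the GstO run 7 of 10 neighbours were higher and 1 lower in TPM (-0.83 to 1.25), and 4 higher and 4 lower after that scaling. GstD and GstE copies are close in sequence, and reads shared between copies are divided by estimation, so the split between neighbours carries an uncertainty that was not measured. No 2 GST genes held identical values.

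The order of levels changed between the groups. In RNAi libraries the most abundant GST genes were GstD1 (2324 ± 229 TPM), GstT4 (722 ± 66.4), GstO3 (528 ± 42.2) and GstE12 (478 ± 9.28), and GstD1 and GstT4 did not overlap with the next gene. In control libraries they were GstD1 (1665 ± 195 TPM), GstT4 (1410 ± 123), GstE3 (1132 ± 108) and GstE7 (946 ± 125), each of whose ranges overlapped with that of the next, except that of GstE7. The leading 4 genes held about the same part of the pool in both groups, 59.5% ± 0.726 in RNAi and 59.8% ± 0.574 in control libraries. GstO3 had rank 3 in RNAi and rank 11 in control libraries, GstD10 ranks 9 and 22, and GstE9 ranks 15 and 5. Along the order, 24 of the 34 pairs of neighbours overlapped in RNAi libraries and 26 of 34 in control libraries, so most adjacent ranks do not differ beyond the spread of the libraries.

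The authors' deposited table of their own comparison lists 34 of the members with fold changes and p-values, all but GstE14. At an unadjusted p under 0.05 the authors' deposited table has 5 members higher and 14 lower, beside 21.9% of its genes higher and 17.9% lower. The 5 higher are GstD2, GstD3, GstD9, GstD10 and GstO3, with log2 fold changes of 1.62, 1.18, 1.08, 2.81 and 1.16 in the authors' deposited table. GstE9, GstE7 and GstE8 have -3.24, -3.20 and -2.76 in the authors' deposited table, GstT4 has -1.28 and GstS1 has -1.40. For GstD1 it gives -0.05 with an unadjusted p of 0.854. Of the other members called higher in TPM, GstE11, GstE13 and GstZ1 have unadjusted p of 0.118, 0.0760 and 0.0863 there. GstO1, GstO2 and GstT2 have unadjusted p of 0.789, 0.816 and 0.333 in the authors' deposited table.

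Genes that make, recycle and use glutathione outside the GST family went in both directions in TPM. Of 24 symbols listed, 22 were found and 20 tested. In TPM 12 were higher (60.0%, beside 66.9% of all genes) and 5 lower (25.0%, beside 16.3%). After median-of-ratios scaling 0 were higher and 12 lower, 60.0% beside 35.8% of all genes (median log2 fold change 0.32 and -0.27). The 2 subunits of glutamate-cysteine ligase, which starts glutathione synthesis, went apart. The modifier subunit gene Gclm measured 140, 130, 149, 146 and 137 TPM in RNAi libraries and 371, 431, 424, 421 and 506 TPM in control libraries, a log2 fold change of -1.60 (limma adjusted p = 2.18e-08), and -2.20 after scaling. The catalytic subunit gene Gclc measured 300, 225, 200, 276 and 284 TPM in RNAi libraries and 155, 142, 125, 139 and 135 TPM in control libraries, higher by 0.87 in TPM and not called after median-of-ratios scaling (0.27, limma adjusted p = 0.0685). Eip55E, the cystathionine gamma-lyase gene that supplies cysteine, fell to 109, 100, 109, 103 and 94.3 TPM in RNAi libraries, against 293, 417, 369, 332 and 364 TPM in control libraries (-1.77, and -2.36 after scaling).

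The glutathione synthetase genes Gss1 and Gss2 held the same value as each other in all 10 libraries, so these copies were not told apart in the table. Counted once, they leave 11 higher and 5 lower of 19 genes in TPM, or 57.9% and 26.3%, beside 66.9% and 16.3% of all genes. They averaged 255 ± 15.1 TPM in RNAi and 152 ± 6.18 TPM in control libraries, higher by 0.74 in TPM and not called after median-of-ratios scaling (0.14, limma adjusted p = 0.107). The regulator cnc, the fly orthologue of Nrf2 that drives GstD1 in the fly, was at 127 ± 8.67 TPM in RNAi and 99.3 ± 11.1 TPM in control libraries, and its sign turned with the scaling (0.36 and -0.24). A list of genes with a GST-like fold or name held 18 symbols, of which 8 were found as genes outside the family, and the other 10 are older names, 9 of them of members and 1 of a gene already among the 8. Of these 8 genes 3 were higher and 1 lower in TPM, or 37.5% and 12.5%, beside 66.9% and 16.3% of all genes. After median-of-ratios scaling 1 was higher and 3 lower (Mgstl, fax and eEF1gamma). These were 12.5% and 37.5%, beside 35.6% and 35.8% of all genes, so the lower share was near that of all genes. The gene that fell under both scalings was the microsomal Mgstl, at 155 ± 12.0 TPM in RNAi and 184 ± 16.3 TPM in control libraries. Clic rose under both scalings (0.86 and 0.27).

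**Figure D5:**
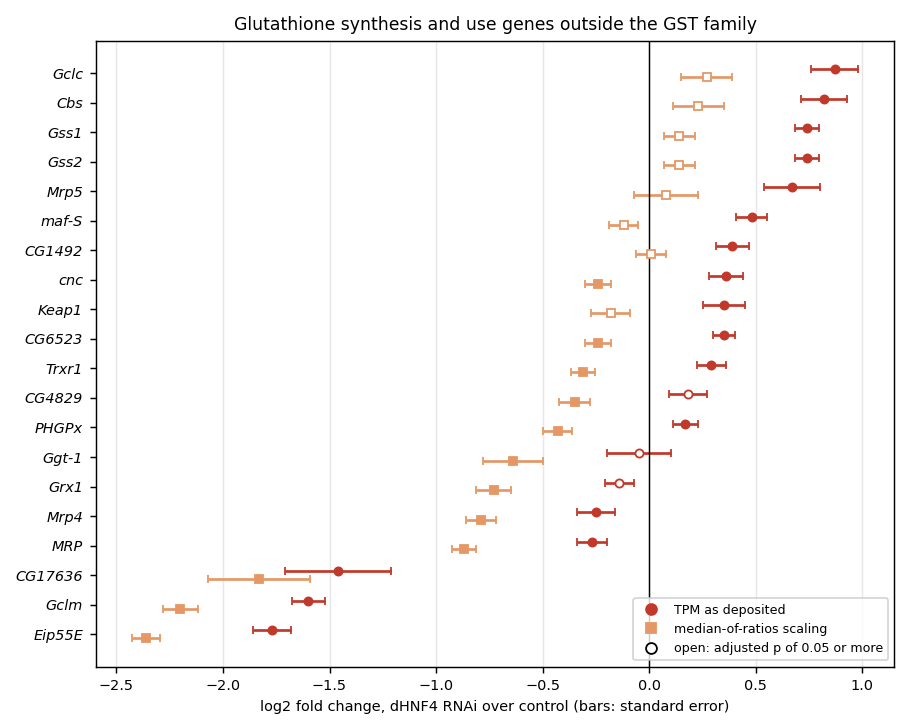
Log2 fold change (dHNF4 RNAi over control, bars for the standard error) of the 20 tested genes of glutathione synthesis and use, circles for TPM as deposited and squares after median-of-ratios scaling, open where the adjusted p was 0.05 or more. Gclm, Eip55E and CG17636 lie below -1 under both scalings, and no gene is called higher after median-of-ratios scaling.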

How the data were processed

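RNA of adult male midguts was sequenced in 10 libraries, made strand-specific with a TruSeq kit per the labels' protocols. The authors deposited TPM per gene and library, and a table with a log2 fold change, a p-value without adjustment and a likelihood ratio score, of which the score was not used. The submitters' processing notes name kallisto, edgeR, Trim Galore and FastQC and the build BDGP6, without versions. The roles of the tools, and whether reads were counted by strand, are not given in the sources used here.

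Symbols came from the deposited files. Of 14310 identifiers, 14263 matched the reference annotation (BDGP6.54), which gave positions for all 35 members. TPM were analysed as log2(TPM + 1), and the 8784 genes averaging 1 TPM or more were tested with limma 3.58.1 in R 4.3.3 (mean-variance trend, two-sided, no covariate), with adjustment over all of them. Median-of-ratios factors used 8706 genes above 0 TPM in all libraries. Precision is limited by the 5 libraries a group, since TPM keep no depth. Members, gene lists and alternatives were chosen with earlier results of these data known. Named genes were, in classes with at least 5 tested members, the 8 with the smallest p and the 2 of highest mean TPM, in smaller classes all tested members, and up to 5 called genes of the glutathione list. The method was tested on simulated data in which most genes were left unchanged. That setting lacks the shift of the median of all genes seen here, so it does not bear on the choice of scaling. Alternatives were other pseudocounts, filters and scalings, the replicate number as a block, each library left out, and, chosen after seeing the data, the libraries with at most 10 TPM of Uro.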

Additional observations from a re-analysis of the deposited data

Results flagged for a closer look

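In 7 of the 70 sets of 5 libraries (each member in each group) 1 library stood apart from the other 4, with a gap to its nearest neighbour of more than 0.71 of the whole range. For normally distributed values chance gives this in about 1 set in 20. That rate does not hold for the sets of GstE14, where most libraries were listed at 0. Control replicate 4 was high for 2 epsilon genes of the same run, with 191 TPM of GstE1 (147 to 159 TPM in the other controls) and 1316 TPM of GstE3 (1040 to 1120 TPM). Control replicate 2 held 46.3 TPM of GstE11, against 30.2 to 34.4 TPM in the other controls. Control replicate 1 held 40.3 TPM of GstT1, against 37.9 to 38.5 TPM. The other 3 cases were genes below the filter, with 0.934 TPM of GstZ2 in RNAi replicate 1 (0.574 to 0.660 TPM in the others), 0.136 TPM of GstE14 in RNAi replicate 5 (listed at 0 in the others) and 0.181 TPM of GstE14 in control replicate 3 (0 to 0.0404 TPM).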

How the results depend on the processing

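The number of GST genes called higher was 12, against 8 to 14 under the alternatives, and the number called lower was 13, against 11 to 17. Leaving out each library in turn gave 12 to 14 higher and 12 to 13 lower, and 7170 to 7337 of all genes. Of the 32 tested members, 19 kept direction and call under every alternative in which they were tested. Among them were GstD2, GstD3, GstD8, GstD9, GstD10, GstE3, GstE4, GstE5, GstE7, GstE8, GstE9, GstO3, GstS1 and GstT4. GstE4, with a mean of 1.37 TPM, was not tested under the filter at a mean of 5 TPM. After median-of-ratios scaling the log2 fold changes were -0.12 for GstD1, -0.29 for GstD4, -0.32 for GstD5, -0.06 for GstE10, -0.04 for GstO1, -0.15 for GstO2, -0.43 for GstT1 and -0.27 for GstT2. Quantile normalization turned GstD4 (-0.27), GstD5 (-0.03), GstO1 (-0.01), GstT1 (-0.27) and GstT2 (-0.22), and upper-quartile scaling turned GstD4 (-0.13), GstD5 (-0.13), GstT1 (-0.25) and GstT2 (-0.09). GstD6, at -0.01, was at 0.03 with a pseudocount of 0.1 and between -0.25 and 0.13 without each library in turn. With the replicate number as a block 12 GST genes were higher and 13 lower, and 7249 of all genes were called. Whether the numbers pair the libraries is not known. The correlation of deviations ran from -0.331 to 0.358 between same-numbered libraries and from -0.341 to 0.318 between differently numbered ones. With so few same-numbered pairs, these ranges cannot decide it. Without control replicate 2, GstD4 and GstD5 were called higher (0.39 each), and without control replicate 5 GstD11 was called lower (-0.65). Sequencing depth is unknown, so no limit of detection is given for the genes listed at 0.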

Other observations

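Ratios of GST genes to each other within a library do not depend on the scaling of a library, and the pairs here were chosen after their values were seen. The ratio of GstD10 to GstD8, which lie in the same run, was 3.92 to 5.27 in RNAi libraries and 0.187 to 0.429 in control libraries. GstD2 to GstD8 was 5.44 to 10.3 in RNAi libraries and 0.481 to 1.00 in control libraries. The ratio of the leading delta gene to the leading epsilon gene of the controls, GstD1 to GstE3, was 6.30 to 8.26 in RNAi libraries and 1.34 to 1.67 in control libraries. The sepia gene se, an omega-class enzyme of eye pigment synthesis that lies within the GstO run, measured 8.59, 5.33, 6.78, 7.34 and 1.58 TPM in RNAi replicates 1 to 5 and 5.14, 3.78, 3.26, 4.80 and 1.04 TPM in control replicates 1 to 5, and was not called.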
